A study of Rattus norvegicus with 6 samples.

Results

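The genes described here are 8 genes by which the thyroid follicular cell moves iodide and the ions that travel with it. They were taken by symbol, with no threshold on a measured value but with earlier results of these data known, and all 8 were found among the 15388 genes counted in each thyroid sample. RNA was sequenced from thyroids of adult female Sprague-Dawley rats, either non-pregnant (NP) or on day 18 of pregnancy (late pregnancy, LP), with 3 samples deposited for each group. The study's methods give no genetic change or drug treatment for either group. The comparison of LP with NP asks whether the iodide transport machinery of the maternal thyroid is altered in late pregnancy.

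Follicular cells take up iodide from the blood and pass it into the follicle lumen, where it is bound to thyroglobulin to make thyroid hormone. The sodium/iodide symporter (Slc5a5) in the basolateral membrane carries iodide inward together with sodium, and the sodium pump maintains the gradient that drives it. Iodide leaves through the apical membrane, for which pendrin (Slc26a4), Slc26a7 and the calcium-activated chloride channel Ano1 are known candidates. Kcnq1 and Kcne2 are the pore and the accessory subunit of a potassium channel that supports iodide uptake. Slc5a8 is a sodium-coupled monocarboxylate transporter of the apical membrane, and Clcn3 is a chloride/proton exchanger of intracellular vesicles.

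Of the 8 genes, 3 were down-regulated in LP and none was up-regulated. Slc5a5 fell to 0.520 of its NP level, Slc26a7 to 0.798 and Ano1 to 0.816. The levels of Kcnq1, Kcne2, Slc5a8 and Clcn3 did not pass the test, and Slc26a4 had too few reads to be tested. Changes were called with edgeR's quasi-likelihood test at an adjusted p-value below 0.05, the Benjamini-Hochberg method being applied to the 11738 genes with enough reads. In this test 3 of the 7 transport and channel genes fell, against 11.7% of all genes tested that were lower in LP, 15.3% that were higher and 27% that changed in either direction. When a change of more than 2-fold was also required, none of the 7 remained by edgeR or by DESeq2, against 5.44% of all genes tested by edgeR. The median log2 fold change was -0.29 over the 7 genes and -0.0089 over all genes tested. These are bulk tissue samples, so fewer follicular cells and less RNA per cell cannot be told apart.

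The samples held between 2752144 and 3449857 counted reads, and 3 reads, taken as the smallest level that can be shown, were between 0.87 and 1.09 CPM. These values and the summed levels are CPM on the total count of each sample, and the levels of single genes are CPM with the totals further scaled by TMM. The label of the tissue was borne out by thyroglobulin (Tg), which took 22.9% to 24.5% of the reads of each sample. Replicates 2 and 3 of a group differed by no more than sampling noise (chi-square per degree of freedom 1.02 in NP and 0.995 in LP), so their average was taken as 1 sample wherever a mean ± SD is given (n = 2). Replicate 1 stood apart from them in both groups (3.70 to 4.11). The p-values then measure the spread between these samples, which may be technical, and edgeR was run on all 6 samples. With replicates 2 and 3 summed, edgeR's adjusted p was 1.75e-06 for Slc5a5, 0.0175 for Slc26a7 and 0.0114 for Ano1. Of the 11 measured skeletal muscle markers, 2 were at 0 in all NP samples and none was in LP. Their summed level was 22.9 to 73.5 CPM in NP and 3804 to 4033 CPM in LP. Of the 7 smooth muscle markers none was at 0 in a group, and all but Des overlapped between the groups. Their summed level differed by replicate, from 335 to 2054 CPM in NP and from 939 to 2571 CPM in LP, Cnn1 (calponin) having 9 and 8 reads in replicate 1 of NP and LP and 258 to 311 in replicates 2 and 3.

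Slc5a5 (ENSRNOT00000025576) showed the clearest difference of the 8 genes. Its level was 339, 354 and 339 CPM in NP replicates 1, 2 and 3, and 181, 179 and 176 CPM in LP replicates 1, 2 and 3. All LP samples thus lay far below all NP samples, and samples of a group lay within a few percent of each other. The means were 343 ± 5.1 CPM (SD, n = 2) in NP and 180 ± 2.7 CPM in LP (CPM scaled by TMM, a scaling in which strongly changed genes carry no weight). The log2 fold change was -0.94 (standard error, SE, 0.054, 95% interval -1.06 to -0.83, adjusted p = 3.08e-10 in edgeR's quasi-likelihood test). The interval includes a 2-fold fall, and with CPM from library totals alone the estimate was -1.02, past the 2-fold cutoff. Of the 780 genes tested that had a mean of at least 500 reads, 8 including Slc5a5 fell by as much. By replicate number, the log2 ratio of LP to NP was -0.90, -0.98 and -0.94.

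**Figure D1:**
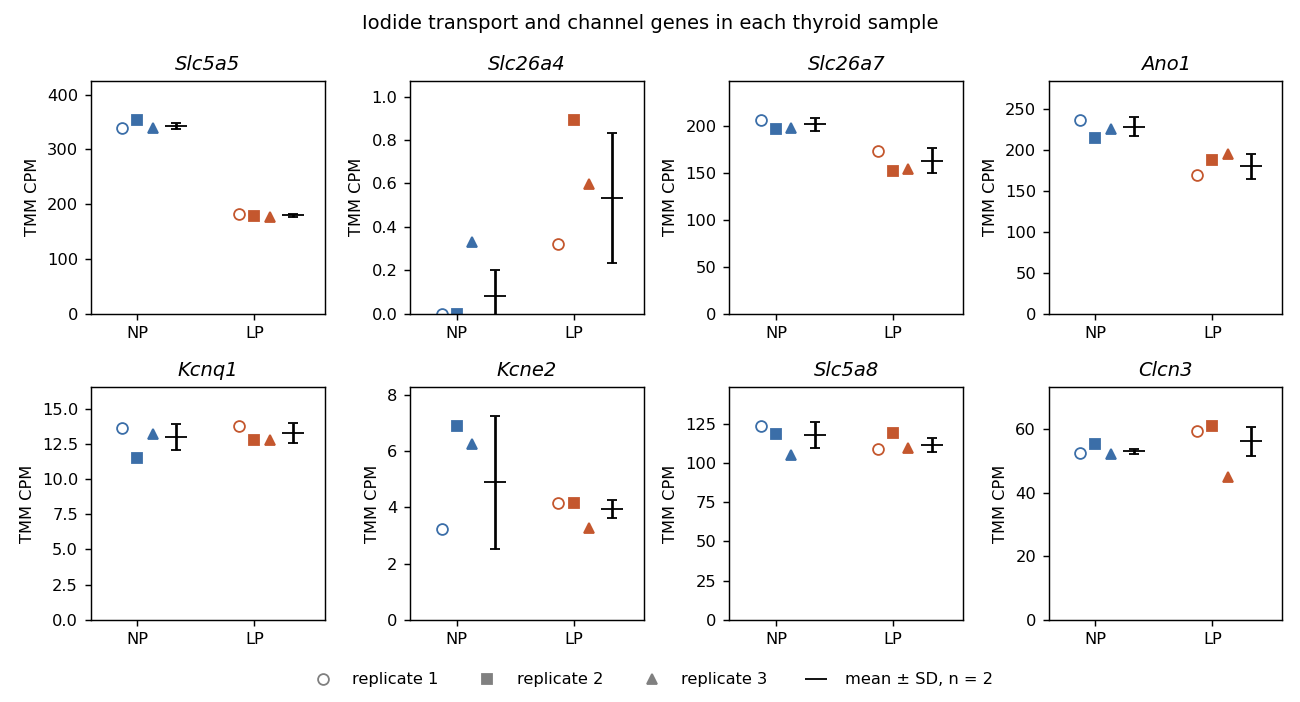
Level of each of the 8 genes in each sample, in CPM with TMM normalization (y axes start at 0 and differ between genes); open circles are replicate 1, squares replicate 2 and triangles replicate 3, and black bars give the mean ± SD with replicates 2 and 3 counted as 1 sample (n = 2). The LP samples of Slc5a5, Slc26a7 and Ano1 lie below all NP samples, whereas the groups of the other 5 genes overlap.

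The fall of Slc5a5 was also examined as a ratio of reads within each sample, which does not depend on how libraries are scaled to each other. There were 1.65, 1.81 and 1.72 reads of Slc5a5 for each read of Slc26a7 in NP replicates 1 to 3, and 1.05, 1.18 and 1.14 in LP replicates 1 to 3. The groups did not overlap, and the ratio fell by 34.8% (two-sided exact permutation test p = 0.10, the smallest that 3 against 3 samples allow, and 0.20 after Benjamini-Hochberg adjustment over the 2 ratios tested). That test takes the 3 samples of a group as independent. With replicates 2 and 3 summed and counted as 1 sample the ratio fell by 35.1% (two-sided exact permutation test p = 0.333, the smallest that 2 against 2 samples allow, and 0.667 after adjustment). Further ratios were chosen after the counts were seen and are given without a test. The reads of Slc5a5 fell by 45.7% relative to Pax8, a transcription factor of the follicular cell. Relative to Ano1 they fell by 36.1%, and relative to the TSH receptor (Tshr), which itself was lower in LP, by 16.8%. In all of these ratios the LP and NP samples did not overlap.

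Among the genes of apical iodide efflux, Slc26a7 (ENSRNOT00000088165) had 206, 196 and 197 CPM in NP replicates 1 to 3 and 173, 152 and 154 CPM in LP replicates 1 to 3. The groups did not overlap, with replicate 1 the highest sample of each. The means were 201 ± 6.8 CPM (SD, n = 2) and 163 ± 14 CPM, and the log2 fold change was -0.32 (SE 0.062, adjusted p = 0.00069 in edgeR's quasi-likelihood test). The 95% interval of the fold change, 0.729 to 0.875, lies wholly above the 0.5 of a 2-fold fall.

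Ano1 (ENSRNOT00000090653) had 237, 215 and 226 CPM in NP replicates 1 to 3 and 170, 188 and 195 CPM in LP replicates 1 to 3. Again each LP sample was below each NP sample, but the gap was narrow, between 195 and 215 CPM. The means were 229 ± 12 CPM (SD, n = 2) and 180 ± 15 CPM, and the log2 fold change was -0.29 (SE 0.065, adjusted p = 0.00231 in edgeR's quasi-likelihood test). The log2 ratio of LP to NP was -0.48 in replicate 1 and -0.20 and -0.21 in replicates 2 and 3, a difference that was not tested. Without both replicate 1 samples, a setting chosen after the counts were seen, the log2 fold change was -0.21 (adjusted p = 0.00662, edgeR). Ano1 is also known from smooth muscle and pacemaker cells of the gut, and the smooth muscle markers were lower in replicate 1 of both groups. Their part in the level of Ano1 was not tested.

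Across all genes tested, 18.9% had every LP sample below every NP sample. Slc5a5, Slc26a7 and Ano1 were the transport and channel genes with this pattern, 3 of the 7 tested.

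The promoter regions of the genes that fell are shown for reference. The study's own search for shared factor sites covered the promoters of up-regulated genes, not those of genes that fell. Sequences of 5 of the 8 genes were at hand from RefSeq (build GRCr8, not the build used for counting), among them Slc5a5 and Ano1 of the genes that fell. The 250 bases before the start are printed 5′ to 3′ on the strand of the gene, with GC boxes (GGGCGG on either strand) in capitals. Slc5a5 lies on the plus strand, with this stretch at chr16:18580455-18580704, and Ano1 on the minus strand, at chr1:209329339-209329588.
Slc5a5: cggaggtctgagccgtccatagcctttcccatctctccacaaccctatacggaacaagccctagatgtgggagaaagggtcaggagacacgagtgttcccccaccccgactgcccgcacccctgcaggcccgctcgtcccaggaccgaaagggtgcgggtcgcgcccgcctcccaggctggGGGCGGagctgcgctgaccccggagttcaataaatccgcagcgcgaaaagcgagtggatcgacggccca
Ano1: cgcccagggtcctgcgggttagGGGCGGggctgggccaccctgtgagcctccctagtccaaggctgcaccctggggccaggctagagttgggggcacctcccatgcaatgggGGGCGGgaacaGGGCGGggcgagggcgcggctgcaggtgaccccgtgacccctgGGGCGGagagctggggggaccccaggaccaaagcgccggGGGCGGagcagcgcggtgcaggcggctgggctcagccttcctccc
The stretch before Slc5a5 held 1 GC box and that before Ano1 held 5. Those before Slc26a4 (too few reads to be tested), Slc5a8 and the 2 starts of Clcn3 held 0. No sequence was at hand for Slc26a7, which also fell, and a link of GC boxes to the fall was not tested. A GC box was present in 30.5% of the 33469 stretches of this length in the table. Neither Slc5a5 nor Ano1 had a match to GGGAGGG (18.7% of all), TGACG (18.2%), CCAAT (34.0%) or TATAAA (12.9%) on either strand. GC content was 65.2% for Slc5a5 and 74.8% for Ano1, against a median of 51.2% over all stretches. It was 65.6% for Slc26a4, 66.8% for Slc5a8, and 64.4% and 43.6% for the 2 starts of Clcn3, so a content like that of Slc5a5 was not particular to genes that fell.

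Slc26a4 (ENSRNOT00000087300) was at the limit of what the depth can show. It had 0, 0 and 1 reads in NP replicates 1 to 3 and 1, 3 and 2 reads in LP replicates 1 to 3. The 6 reads in LP against 1 in NP gave a ratio of 5.41 after scaling, with a 95% counting interval from 0.656 to 249, so that no difference was detectable at this depth. A low count in these tables need not mean little RNA. The collagen gene Col1a2, for example, had 0 to 3 reads in each sample, whereas its partner chain Col1a1 had 850 to 3540. For Slc26a4 the deposited counts therefore do not separate a low transcript level from reads that were not assigned to the gene.

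**Figure D2:**
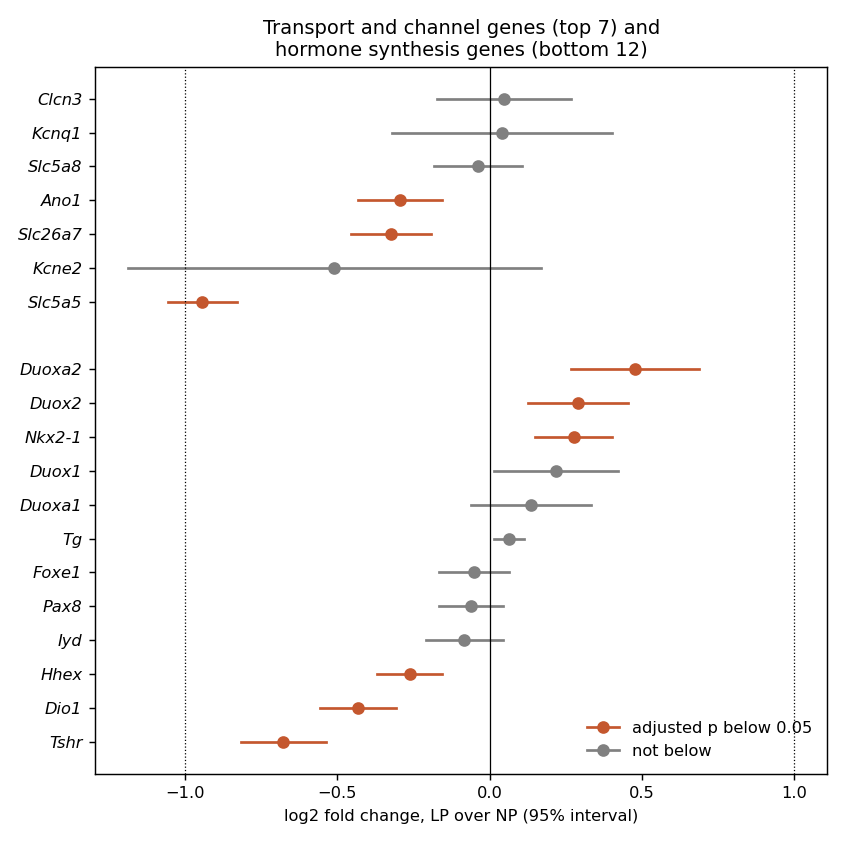
Log2 fold change of LP over NP with its 95% interval from the edgeR model for the 7 transport and channel genes tested and, below the gap, 12 hormone synthesis genes, with dotted lines at a 2-fold change. The interval of Slc5a5 reaches from -1.06 to -0.83, that of Kcne2 spans -1.19 to 0.17, and no gene shown lies beyond a 2-fold change.

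The potassium channel subunits had few reads. Kcnq1 (ENSRNOT00000027875), the pore subunit, was counted 38, 35 and 40 times in NP replicates 1 to 3 and 43 times in each LP sample, or 12.98 ± 0.91 CPM (SD, n = 2) against 13.3 ± 0.69 CPM. The groups overlapped, and the log2 fold change was 0.041 (95% interval -0.32 to 0.40, adjusted p = 0.903, edgeR). Kcne2 (ENSRNOT00000040844), its accessory subunit, had 9, 21 and 19 reads in NP replicates 1 to 3 and 13, 14 and 11 in LP replicates 1 to 3. By CPM, NP replicate 1 was the lowest of the 6 samples, at 3.23 CPM against 6.90 and 6.26 in the other NP samples and 4.17, 4.17 and 3.28 in LP, and the groups overlapped. The log2 fold change of Kcne2 was -0.51 (SE 0.32, 95% interval -1.19 to 0.17, adjusted p = 0.274, edgeR), an interval wide enough to hold both a 2-fold fall and no change. Without NP replicate 1 the log2 fold change was -0.76, and without NP replicate 2 it was -0.32, the edgeR test being passed in neither. The reads of Kcnq1 per read of Kcne2 were 4.22, 1.67 and 2.11 in NP replicates 1 to 3 and 3.31, 3.07 and 3.91 in LP replicates 1 to 3, which overlapped (two-sided exact permutation test p = 0.40, also 0.40 after adjustment over the 2 ratios tested, and p = 1 with replicates 2 and 3 summed).

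The level of Slc5a8 (ENSRNOT00000008613) was 124, 118 and 105 CPM in NP replicates 1 to 3 and 109, 119 and 110 CPM in LP replicates 1 to 3. The LP samples lay within the range of the NP samples, with means of 118 ± 8.4 CPM (SD, n = 2) and 112 ± 4.2 CPM. The log2 fold change was -0.038, and the 95% interval of the fold change was 0.881 to 1.08 (adjusted p = 0.741, edgeR). Slc5a8 is a relative of Slc5a5 by family. Slc5a5 reads per Slc5a8 read numbered at least 2.74 in each NP sample and at most 1.67 in each LP sample.

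Clcn3 (ENSRNOT00000050549) had 52.4, 55.2 and 52.1 CPM in NP replicates 1 to 3 and 59.3, 61.0 and 45.0 CPM in LP replicates 1 to 3. LP replicate 3 was the lowest of the 6 samples and LP replicate 2 the highest, although these replicates were otherwise within sampling noise of each other. The log2 fold change was 0.047 (95% interval -0.17 to 0.27, adjusted p = 0.790, edgeR). The sign of the small estimates for Kcnq1, Slc5a8 and Clcn3 changed with the samples or the scaling used, and no direction is given for them. Between samples of 1 group, most of the 8 genes varied little more than counting alone gives. The chi-square of a gene over the 3 samples of a group (2 degrees of freedom) was 0.157 to 5.97, except for Clcn3 in LP, where it was 9.39.

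**Figure D3:**
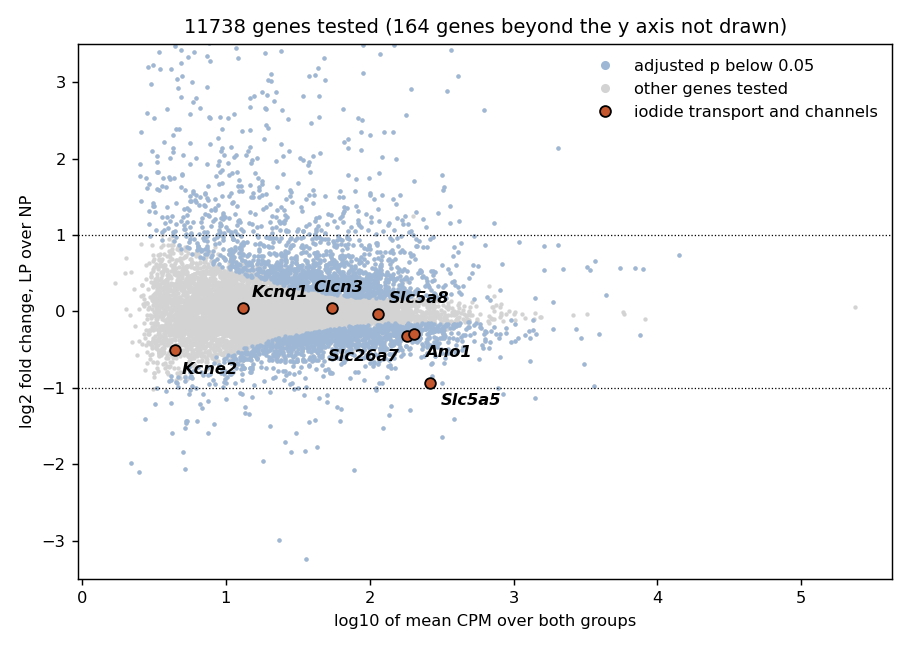
Log2 fold change of LP over NP against the log10 of the mean CPM over both groups for the 11738 genes tested (164 genes beyond the y axis are not drawn), with the 7 transport and channel genes in red and dotted lines at a 2-fold change. Slc5a5 lies at -0.94 near the lower edge of genes of like level. Slc26a7 and Ano1 lie among the called genes, and Kcnq1, Slc5a8 and Clcn3 lie near 0.

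The 8 genes together took 964 to 988 CPM of the NP samples and 679 to 698 CPM of the LP samples (scaled by library totals). Slc5a5 made up 34.8% to 37.0% of these reads in NP and 25.0% to 25.6% in LP. Lengths of the transcripts were not used here, so levels are not compared between genes.

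The genes with the pattern most like Slc5a5 over the 6 samples, by the root mean square difference of centred log2 CPM among 7938 genes with a mean of at least 50 reads, were Csf3 (0.058), Tinagl1 (0.058) and Tsc22d3 (0.065). Their log2 fold changes in the edgeR model were -1.01, -0.94 and -0.86. Those nearest to Slc26a7 were Ganab (0.020), Rapgef5 (0.026) and Slc25a24 (0.026), and those nearest to Ano1 were Dtnb (0.012), Aktip (0.030) and Tex10 (0.034). For Kcnq1 they were Stard3, Abhd17a and Trmt1, for Slc5a8 Pi4kb, Ppp4r1 and Slc35a1, and for Clcn3 Aup1, Gatad2b and Tnpo3, at differences of 0.016 to 0.043. Kcne2, with only 9 to 21 reads in a sample, had no gene closer than Ttc8 (0.13), followed by Lrrc49 and Arfip1. The part of counting noise in this distance was not tested.

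The other genes of hormone synthesis moved in both directions. Of 14 listed genes 12 were tested, of which 3 rose, 3 fell and 6 did not pass the test, with a median log2 fold change of 0.0055. DESeq2 called 5 of the 12. Tshr, through which TSH raises Slc5a5, was the next to Slc5a5 in size among those that fell, at 335 ± 29 CPM (SD, n = 2) in NP and 208 ± 14 CPM in LP (log2 fold change -0.68, adjusted p = 3.99e-07, edgeR), followed by the deiodinase Dio1 (-0.43) and the homeobox gene Hhex (-0.26). Those that rose were Duoxa2 (0.48), Duox2 (0.29), which makes the hydrogen peroxide for iodination, and the transcription factor Nkx2-1 (0.28).

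Of 9 genes related to the sodium pump and cation transport that were listed and tested, 3 rose and 6 did not pass the test, with a median log2 fold change of -0.038. DESeq2 called 2 of the 9. The sodium-potassium-chloride cotransporter Slc12a2 rose by 0.46, and the pump regulators Fxyd6 and Fxyd1 by 2.15 and 2.09. Fxyd6 had 1, 22 and 29 reads in NP replicates 1 to 3, replicate 1 lying far below the others. In LP replicates 1 to 3 it had 71, 100 and 87 reads.

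Relatives of the 8 genes within their families were then compared by the same test. None of 5 tested SLC26 transporters passed it (0 by DESeq2 and 0 at an unadjusted p below 0.05). Slc26a10, the most highly counted of these relatives, had a log2 fold change of -0.11 (adjusted p = 0.159, edgeR). Of the SLC5 relatives, Slc5a6, a vitamin transporter, had enough reads, its log2 fold change being -0.073 (adjusted p = 0.636, edgeR). Of 2 listed KCNQ subunits tested Kcnq5 rose by 0.75 in edgeR, whereas DESeq2 called 0 of the 2. Kcne3, Kcne4 and Kcne5, relatives of Kcne2, had at most 6 reads in a sample. Of 6 listed CLC genes and partner subunits tested 2 rose (2 called by DESeq2) and 4 did not pass the test, with a median of 0.415. They were Clcn1, the chloride channel of skeletal muscle, with 227 reads in LP against 2 in NP, and Clcn4, like Clcn3 an exchanger of intracellular vesicles (1.51). Of 5 relatives of Ano1, 2 rose (1 called by DESeq2), Ano8 by 0.32 and the muscle gene Ano5, with 91 reads in LP against 1 in NP. The scaled ratio of these reads was 102.3 for Clcn1 (95% counting interval 28 to 849.8) and 82 for Ano5 (14.4 to 3274). Of 7 other anion channel genes 2 rose and 2 fell, and DESeq2 called 2 of the 7. Best1, a calcium-activated anion channel, rose from 397 ± 7.8 CPM (SD, n = 2) to 498.5 ± 2.3 CPM (log2 fold change 0.34, adjusted p = 3.28e-05, edgeR) where Ano1 fell, its relative Best3 rose by 2.60, and the volume-regulated channel subunits Lrrc8e and Lrrc8c fell by 0.52 and 0.51. Skeletal muscle markers rose together with Clcn1, Ano5, Fxyd1 and Best3, from at most 73.5 to at least 3804 CPM in sum, and the part of muscle in these changes was not tested.

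**Figure D4:**
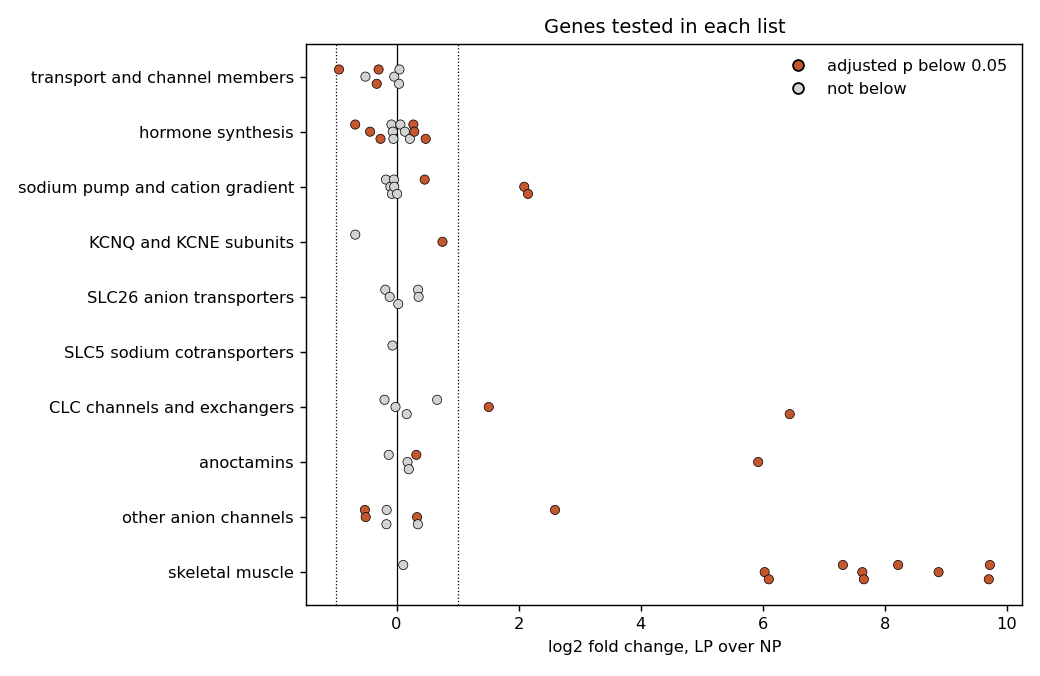
Log2 fold change of LP over NP for each gene tested in the transport and channel genes, 8 lists of related genes and the skeletal muscle markers, with dotted lines at a 2-fold change (points are spread vertically for legibility). Clcn1 at 6.44 and Ano5 at 5.93 lie near the muscle markers, 9 of which lie at 6.03 or above (these fitted values depend on the prior count where NP had 0 to 3 reads), whereas the transport and channel genes lie between -0.94 and 0.05.

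Among markers of other cell types, the parathyroid hormone gene Pth fell by 0.30 and the calcitonin gene Calca of C cells by 0.32. Neither Pth nor Calca is a gene of follicular cells, and their values stood beside -0.32 for Slc26a7, -0.29 for Ano1 and -0.94 for Slc5a5. Other markers of the same cell types did not fall with them. The C cell marker Scg2 rose by 0.42 (adjusted p = 0.0058, edgeR). The parathyroid markers Gcm2 (0.18) and Casr (0.096) did not pass the test. In all, 1 of 7 C cell markers rose and 1 fell (sums of 14300 to 15130 CPM in NP and 12040 to 12700 CPM in LP), 1 of 3 parathyroid markers fell (4589 to 4912 and 3633 to 3914 CPM), and 3 of 5 endothelial markers fell (479 to 509 and 387 to 411 CPM), with none at 0 in a group. Most reads of the parathyroid sum were of Pth (12534 in NP replicate 1, against 241 of Gcm2 and 743 of Casr). Most of the C cell sum was Calca and Chga (24010 and 16782 reads in NP replicate 1), Chga having a log2 fold change of -0.011. These sums therefore follow single genes more than the lists. DESeq2 called 1 C cell, 1 parathyroid and 2 endothelial markers. Their part in the levels of Slc26a7 and Ano1 was not tested. Of 10 follicular cell markers, most of them also on the list of hormone synthesis, 3 rose, 2 fell (4 called by DESeq2) and none was at 0 in a group. Scaled to the sum of these markers without Tg, the log2 fold changes were -0.89 for Slc5a5 (adjusted p = 1.55e-08), -0.27 for Slc26a7 (adjusted p = 0.00323) and -0.23 for Ano1 (adjusted p = 0.0331), all past edgeR's test. Of skeletal muscle 9 of 10 markers tested rose, of airway 3 of 3, and of smooth muscle 1 of 7 (Des, which skeletal muscle also expresses), whereas 1 of 5 fibroblast markers fell. In the same order, DESeq2 called 9, 3, 1 and 0 markers of these lists. No tested gene of the macrophage list (6) or the adipocyte list (3) passed edgeR's test, with 2 and 0 at an unadjusted p below 0.05 and 0 and 0 by DESeq2, and no B lymphocyte gene had enough reads.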

How the data were processed

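Per the labels and the study's methods, polyA RNA of rat thyroids was sequenced on an Illumina instrument, mapped to rn5 with Tophat 1.4.0 and counted with HTSeq-count on Ensembl release 81 gene models. Whether these models carried rn5 coordinates, and the strand setting, are not given in the sources used here. The authors deposited raw read counts per gene, without normalization, 1 table per sample. LP was compared with NP in edgeR 4.0.16 (R 4.3.3) by the quasi-likelihood test on all 6 samples, with TMM normalization, edgeR's default filter and Benjamini-Hochberg adjustment. Standard errors were derived from the log2 fold change and its F statistic, and Slc26a4, below the filter, was fitted without it. The alternatives were DESeq2 1.42.0, other filters, scalings and thresholds, each replicate left out, and the replicate number as a block. Replicate numbers were taken from the labels. Same-numbered NP and LP samples deviated together from their group means (correlations of 0.58, 0.31 and 0.28 across 7943 genes), but replicates 2 and 3 did so just as much when crossed (0.30 and 0.28). Replicate 1 of a group against replicates 2 and 3 of the other gave -0.43 to -0.39. Deviations within a group cancel, so a replicate 1 apart in both groups by itself gives replicates 2 and 3 positive correlations. Their values therefore do not show a pairing by number. The 8 genes and the lists were chosen with earlier results of these data known. Named in each list were up to 4 genes with an adjusted p below 0.05 and the largest change, or, with none, the most highly counted gene. Other genes were named after their values were seen. Some genes of the lists are not reported here and were left out of the list counts. On simulated counts (11713 genes, 200 of them changed by a log2 fold of 2), edgeR recovered 100% and called 6 unchanged genes. The simulated samples were independent, with 1 spread for all genes. Recovery of changes as small as those of Slc5a5, Slc26a7 and Ano1 was not simulated. Intervals from reads cover counting error only.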

Additional observations from a re-analysis of the deposited data

How the results depend on the processing

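Slc5a5, Slc26a7 and Ano1 kept their direction under the 19 alternatives tried, with log2 fold changes of -1.02 to -0.89, -0.40 to -0.27 and -0.37 to -0.21. The direction could not turn at the 0.01 threshold or with the fold tested against 1.5, which keep the main estimate. With the fold change tested against 1.5, 1 of the 3 still passed (Slc5a5), a limit that log2 fold changes near -0.3 cannot reach. With library totals alone, which shifted the median of all genes from -0.0089 to -0.081, 1 gene, Slc5a5, was past a 2-fold change (-1.02). With any 1 replicate left out, 3 genes passed the test and 0 also met the 2-fold cutoff. The replicate block changed no call, with 3 genes past the test, and lowered the coefficient of variation from 0.0645 to 0.0131, so its p-values rest mainly on counting noise. The direction turned, with no call in either direction, for Kcnq1 without NP replicate 2 (-0.038), without LP replicate 1 (-0.0017) and with library totals (-0.031), for Slc5a8 without NP replicate 1 (0.0091), scaled to follicular genes (0.022) and without both replicate 1 samples (0.030), and for Clcn3 without LP replicate 1 (-0.0145), without LP replicate 2 (-0.036), with library totals (-0.025) and without both replicate 1 samples (-0.022). The cause was not tested. With each replicate left out the values ran from -0.038 to 0.086 for Kcnq1, from -0.11 to 0.0091 for Slc5a8 and from -0.036 to 0.17 for Clcn3. Without both replicate 1 samples, a setting added after the counts were seen, 3 genes passed the test. Summing replicates 2 and 3 for the ratios of reads was also added after the counts were seen. Counts below about 50 reads limit Kcnq1 and Kcne2, and 7 reads in all limit Slc26a4, whose fitted value moved between 1.61 and 4.02. Over all genes, those past both criteria numbered 315 with a mean of at least 50 reads, against 638, and those with an adjusted p below 0.05 numbered 1922 by DESeq2, 667 with the fold tested against 1.5 and 2107 at a threshold of 0.01, against 3168.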
